A study of Mus musculus with 12 samples.

Results

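Gene expression was compared between alveolar macrophages of Vdr knockout (KO) mice and of wild-type (WT) mice at 4 weeks of age. Alveolar macrophages are the resident phagocytes of the air spaces, and they were taken fresh from lung lavage. The comparison was defined by the genotype and age labels alone, and it held 4 of the 12 RNA-seq libraries of the study: 2 of KO mice and 2 of WT mice. Of 23413 genes in the table of counts, 12748 passed a filter on low counts and were tested. The other 8 libraries were fresh KO and WT cells at 10 weeks, and WT cells cultured for 24 h with 50 nM vitamin D3 or without it, 2 of each. They entered the same fit, which shared 1 estimate of the spread over the 6 groups. The labels give no strain, sex, promoter or allele for the knockout, and they do not say whether the libraries of a group came from separate mice. Every p-value thus reflects only how far libraries of a group differed, and that spread may be technical.

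The vitamin D receptor is a nuclear receptor that binds DNA as a partner of the retinoid X receptors and changes transcription when it holds the active form of vitamin D. Alveolar macrophages take up inhaled particles, spent surfactant and dying red cells, so they handle large amounts of lipid, haem and iron. NRF2, encoded by Nfe2l2, is a transcription factor that drives genes of glutathione, thioredoxin, NADPH and haem metabolism through the antioxidant response element, and KEAP1 holds it in check.

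The KO libraries held 16959947 and 13640751 counts in all, and the WT libraries held 13611143 and 18885441, so that 1 count was worth 0.0483 to 0.0701 CPM (the count scaled to the TMM-normalized library size). Replicates differed by more than sampling noise, with a chi-square per degree of freedom of 9.98 in KO and 52.1 in WT, which does not tell whether they came from separate mice. Xist stayed under 1 CPM and Ddx3y, a gene of the Y chromosome, at 63.8 CPM or above in all 4 libraries. Macrophage markers were present in every library: Lyz2 (lysozyme) was at 13536 and 12833 CPM in KO cells and 12848 and 11956 CPM in WT cells, and Mrc1 (the mannose receptor) at 2180.3 and 1999 CPM in KO cells and 1819.6 and 2166 CPM in WT cells. Of the 12 core macrophage markers tested, Marco alone passed the test. Vdr itself was at 45.9 and 31.2 CPM in the libraries labelled KO, against 56.5 and 57.7 CPM in WT. Its log2 fold change, here and below with its standard error, was -0.56 ± 0.32 (edgeR adjusted p = 0.527). Both KO libraries were below both WT libraries, but the transcript was present in all of them. The sources used here do not state which exons the knockout lacks, so a count over the whole gene is a weak check of the labels. With no filter on low counts Vdr passed (edgeR adjusted p = 0.00308).

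At 4 weeks 85 genes passed the test, 0.667% of those tested (edgeR quasi-likelihood test, Benjamini-Hochberg adjusted p under 0.05). Of these, 60 were higher in KO cells (0.471%) and 25 were lower (0.196%). In 32 of the genes that were higher the difference was at least 2-fold, and in 11 of the genes that were lower. The KO and WT libraries did not overlap in CPM for any of the 85, which was also so for 48.6% of all tested genes. The median log2 fold change over all tested genes was -0.0066. Haem, iron and NADPH genes, scavenger receptors and several transporters were among the genes that were higher. Slpi, Id3, Cebpa, Pdgfc and Fzd1 were among those that were lower. Leaving out any 1 of the 4 libraries left 26 to 39 genes past the threshold, and 16 of the 85 genes passed in all 4 of those fits. These were Hmox1, Slc40a1, Ftl1, Slc11a2, Me1, Abcb6, Aldh2, Cd1d1, Clec4d, Ppap2b, Glrx, Creg1, Mocos, Amd1, Gm6682 and, of the genes that were lower, Slpi alone.

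**Figure D1:**
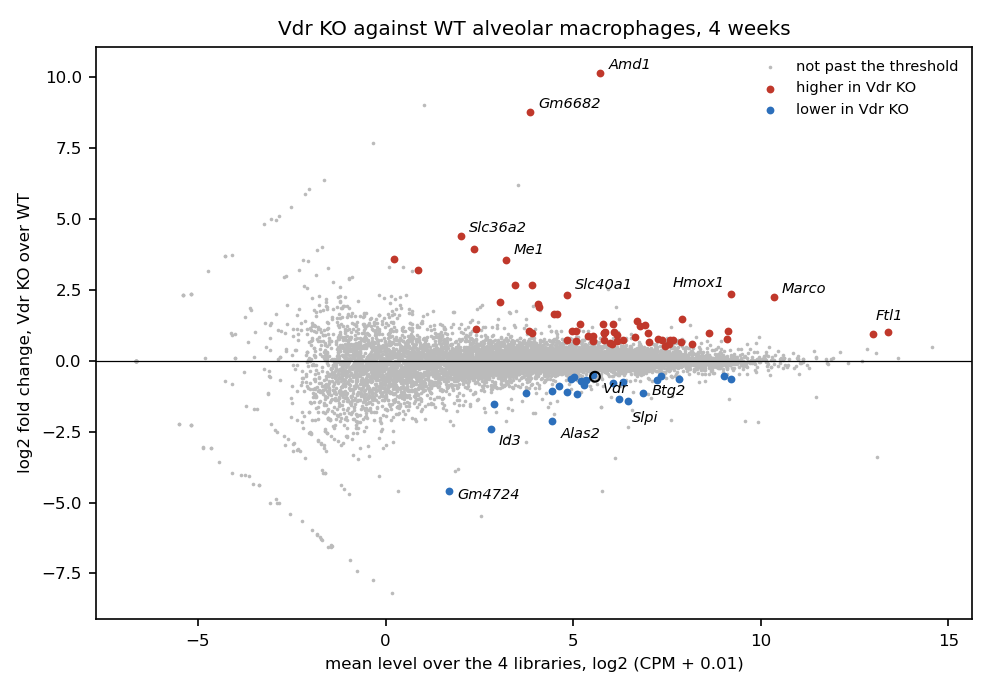
Each point is 1 of the 12748 tested genes, placed by its mean level over the 4 libraries (x axis, log2 CPM with 0.01 added) and by its log2 fold change of KO over WT (y axis). Red points are the 60 genes higher in KO cells, blue points the 25 lower ones, and the open circle is Vdr at -0.56.

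Genes that break down haem and that store and export iron were among those that were higher. Of 25 tested genes of haem and iron handling, 5 were higher in KO cells, 0 were lower and 20 did not pass. Hmox1, the oxygenase that opens the haem ring and frees its iron, was at 985 and 991 CPM in KO cells, against 231 and 152 CPM in WT cells. The KO libraries lay close together and at several times the level of either WT library. The difference was 5.16-fold, with a log2 fold change of 2.37 ± 0.18 and an edgeR adjusted p of 0.000112. Slc40a1, which encodes ferroportin, the exporter of iron from the cell, was at 43.3 and 51.2 CPM in KO cells, against 11.5 and 7.48 CPM in WT cells. The log2 fold change was 2.33 ± 0.28, with an edgeR adjusted p of 0.00266.

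Both chains of ferritin, the protein shell that stores iron, were about doubled although they were already among the most abundant transcripts. Ftl1, the light chain, was at 14298 and 14559.9 CPM in KO cells, against 7662 and 6662 CPM in WT cells, with a log2 fold change of 1.01 ± 0.11 and an edgeR adjusted p of 0.000851. Fth1, the heavy chain with the ferroxidase site, was at 10710.1 and 10770.4 CPM in KO cells, against 5642 and 5472 CPM in WT cells, with a log2 fold change of 0.95 ± 0.12 and an edgeR adjusted p of 0.00308. Neither gene overlapped between the genotypes. Ferritin genes have many processed copies in the mouse genome, and the sources used here do not state how reads that match several places were counted. Slc11a2 encodes DMT1, which carries ferrous iron across membranes, and was at 55.9 and 47 CPM in KO cells, against 21.9 and 19.8 CPM in WT cells (log2 1.31 ± 0.12, edgeR adjusted p = 0.00059). It lies on chromosome 15, 41 tested genes from Vdr, and was also higher in KO cells at 10 weeks (log2 0.82, edgeR adjusted p = 0.0373). Linkage to the knockout allele and loss of the receptor cannot be told apart for this gene.

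The median log2 fold change of the whole list was 0.07. Tfrc, the transferrin receptor that brings iron in, was at 38.4 and 28.4 CPM in KO cells and 37.3 and 36 CPM in WT cells (log2 -0.13 ± 0.24). Alas1, the first enzyme of haem synthesis in most cells, had a log2 fold change of -0.63 ± 0.14 and an edgeR adjusted p of 0.0701, and Slc48a1, which carries haem out of the lysosome, of 0.63 ± 0.14 (edgeR adjusted p = 0.067). Bach1, which encodes a haem-sensing repressor of Hmox1, was at 169 and 172 CPM in KO cells and 153 and 165 CPM in WT cells. Of genes outside the list, Abcb6, an ABC transporter linked to porphyrins, was at 33.2 and 38.5 CPM in KO cells, against 11.3 and 11.3 CPM in WT cells (log2 1.66 ± 0.13, edgeR adjusted p = 0.000112). Fbxl5, the iron-sensing subunit of the ubiquitin ligase that degrades iron regulatory proteins, was 1.67-fold higher in KO cells (edgeR adjusted p = 0.0219). Tfrc, Alas1, Slc48a1, Bach1 and Fbxl5 were chosen after their values were seen. Fth1 lost its call without WT replicate 2 (edgeR adjusted p = 0.0528).

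The list of NRF2 and antioxidant genes leaned higher. Of 39 tested members, 6 were higher in KO cells, 0 were lower and 33 did not pass. Hmox1 was counted both here and in the list of haem and iron handling. With DESeq2 15 were higher and 1 was lower, and with no filter on low counts 21 and 1. Those fits also passed more genes of every kind. Among all genes 171 were higher and 90 lower with DESeq2, and 379 and 311 with no filter, against 60 and 25. The median log2 fold change of the list was 0.59, and 34 members had values above 0. Me1, the cytosolic malic enzyme that makes NADPH, was at 17.8 and 16 CPM in KO cells, against 1.96 and 1.01 CPM in WT cells. It was 11.6-fold higher, with a log2 fold change of 3.54 ± 0.36 and an edgeR adjusted p of 0.000814. Gsr, the glutathione reductase that uses NADPH, was at 536 and 506 CPM in KO cells, against 249 and 284 CPM in WT cells (log2 0.97 ± 0.13, edgeR adjusted p = 0.00453). Both genes were well apart between the genotypes. Akr1b8, an aldo-keto reductase, was at 12.2 and 14.4 CPM in KO cells, against 3.98 and 2.41 CPM in WT cells (log2 2.08 ± 0.33, edgeR adjusted p = 0.017).

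Some familiar members of this list missed the threshold by little, and they are given here after their values were seen. Gclm, the modifier subunit of the enzyme that starts glutathione synthesis, was at 106 and 113 CPM in KO cells, against 43.9 and 35.6 CPM in WT cells (edgeR adjusted p = 0.0663). Slc7a11, the cystine importer that feeds glutathione synthesis, was at 107 and 112 CPM in KO cells, against 43 and 17.3 CPM in WT cells (edgeR adjusted p = 0.0519). In both genes the KO libraries agreed closely while the WT libraries differed from each other, most of all for Slc7a11. Nqo1, a quinone reductase often used as a readout of NRF2, was low, at 2.16 and 5.96 CPM in KO cells and 1.96 and 1.59 CPM in WT cells, and the genotypes were not told apart (edgeR adjusted p = 0.523). Nfe2l2 was at 159.8 and 161 CPM in KO cells and 193 and 207 CPM in WT cells (log2 -0.32 ± 0.14, edgeR adjusted p = 0.385). Keap1 was at 65.6 and 61.7 CPM in KO cells and 50.9 and 56.2 CPM in WT cells (edgeR adjusted p = 0.42). Ephx1, the microsomal epoxide hydrolase, had a log2 fold change of -1.61 ± 0.43 and an edgeR adjusted p of 0.14.

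Several enzymes that supply NADPH were higher. Of 14 tested genes of NADPH supply and the pentose phosphate pathway, 5 were higher in KO cells, 0 were lower and 9 did not pass. The median log2 fold change was 0.31. Me1, G6pdx and Pgd were also counted in the NRF2 list, so the 2 lists are not separate results. G6pdx, the gate of the pentose phosphate pathway, was at 291 and 279 CPM in KO cells, against 192 and 172 CPM in WT cells (log2 0.65 ± 0.11, edgeR adjusted p = 0.0183). Pgd, which makes NADPH at a later step, was at 688 and 701 CPM in KO cells, against 438 and 383 CPM in WT cells (log2 0.76 ± 0.15, edgeR adjusted p = 0.0451). These differences were smaller than that of Me1, and neither gene overlapped between the genotypes. Me2, the mitochondrial malic enzyme, was 1.52-fold higher (edgeR adjusted p = 0.0451). Nnt, the transhydrogenase that makes NADPH in mitochondria, was 2.03-fold higher (edgeR adjusted p = 0.0494). The sugar-shuffling enzymes of the same pathway, Taldo1 and Rpia, did not pass, with log2 fold changes of 0.22 and 0.063; both were chosen after their values were seen. Gsr passed in 2 of the 4 fits that left out a 4-week library, Akr1b8 in 1, and G6pdx, Pgd, Me2 and Nnt in 0 (highest edgeR adjusted p = 0.0811, 0.144, 0.174, 0.313, 0.326 and 0.328).

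**Figure D2:**
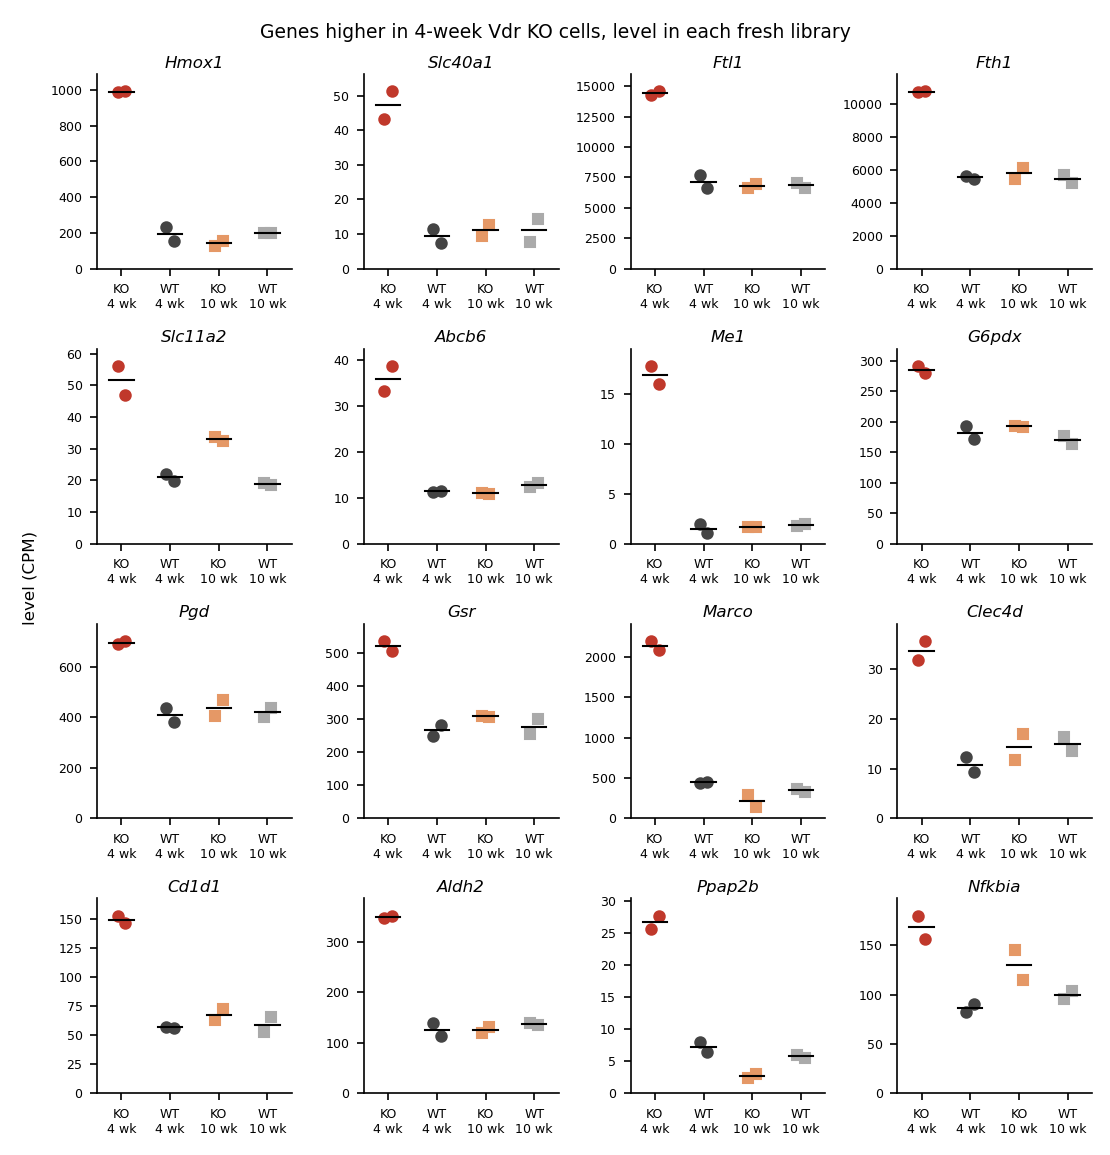
Level (y axis, CPM from 0) of 16 genes that were higher in 4-week KO cells, in each of the 8 fresh libraries, with a bar at the mean of each group of 2. In the 4-week KO group Hmox1 sat at 985 and 991 CPM and Marco at 2195 and 2086 CPM, above both 4-week WT libraries and all 4 libraries of 10-week mice.

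Windows around RefSeq transcript starts of Me1, G6pdx and Pgd are shown. Of the 6 genes of the NRF2 list that passed, these held the core of the antioxidant response element there. The window of Akr1b8 held no match, and Hmox1 and Gsr had no window in the table. The windows run from 250 bases before to 50 bases after a transcript start and come from RefSeq on build GRCm38.p6, while the counts were made on mm9. Capitals mark the core, TGACNNNGC read on either strand.
Me1, chr9:86695865-86696164, minus strand: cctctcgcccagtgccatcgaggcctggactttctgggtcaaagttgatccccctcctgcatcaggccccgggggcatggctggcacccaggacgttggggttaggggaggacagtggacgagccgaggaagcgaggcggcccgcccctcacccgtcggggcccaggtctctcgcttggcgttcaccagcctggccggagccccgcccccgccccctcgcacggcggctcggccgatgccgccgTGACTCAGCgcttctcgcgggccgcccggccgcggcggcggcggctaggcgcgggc
G6pdx, chrX:74428831-74429130, minus strand: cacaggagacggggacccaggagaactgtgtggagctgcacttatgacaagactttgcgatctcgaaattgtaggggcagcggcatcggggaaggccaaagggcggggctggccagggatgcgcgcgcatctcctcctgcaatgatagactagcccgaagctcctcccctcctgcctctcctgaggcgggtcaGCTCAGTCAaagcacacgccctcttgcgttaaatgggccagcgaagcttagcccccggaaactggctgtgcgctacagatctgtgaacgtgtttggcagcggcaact
Pgd, chr4:149166033-149166332, minus strand: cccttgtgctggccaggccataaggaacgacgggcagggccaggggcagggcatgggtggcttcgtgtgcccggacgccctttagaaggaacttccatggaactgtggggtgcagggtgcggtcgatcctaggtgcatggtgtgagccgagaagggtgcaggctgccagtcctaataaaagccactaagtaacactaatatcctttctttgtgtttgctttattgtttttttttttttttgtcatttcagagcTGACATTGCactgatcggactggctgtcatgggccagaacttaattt
RefSeq lists 2 windows each for Me1 and Pgd, and the other one held no match. In Me1 the match begins 6 bases before the start and its letters also hold the AP-1 motif TGANTCA. In G6pdx it lies 57 bases before the start and is read on the opposite strand. In Pgd it lies just after one of the starts that RefSeq lists for the gene, not before it, and the window further upstream held no match. Whether the Pgd window shown acts as a promoter was not tested. Its match enters the whole-window share of the higher genes below, but not the share for the 250 bases before the start. Of the 60 genes higher in KO cells 41 had a window in the table, and 10 of these held the core (24.4%). Of the 25 lower genes 22 had a window, and 1 held it (4.55%). The share was 17.2% over all tested genes with a window and 12.4% over all windows in the table. In the 250 bases before the start alone it was 17.1% of the higher genes and 14.1% of all tested genes, so the higher genes were close to the background. AP-1 was found in 3 of the 41 windows (7.32%), against 6.33% of those of all tested genes. A DR3 type vitamin D response element, the direct repeat that the receptor prefers, was in 0 of the windows of genes that were higher, lower or tested, and in 4 of all 32851. A match is a description of letters, and its absence says only that the letters are not in these windows.

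Lists of sugar and lipid metabolism each held 0 or 1 genes past the threshold. As 0.667% of all tested genes passed, 0 in a list of this size says little. Glycolysis had 0 of 19 genes past the threshold and a median log2 fold change of 0.22. Pkm, pyruvate kinase, was at 931 and 972 CPM in KO cells, against 671 and 598 CPM in WT cells (edgeR adjusted p = 0.132). Cholesterol synthesis had 0 of 24 past the threshold, but all 24 had values above 0 and the median was 0.33. Hmgcs1, which starts the pathway, was at 197 and 216 CPM in KO cells, against 144 and 146 CPM in WT cells (edgeR adjusted p = 0.183). Within the KO group, replicate 2 was higher than replicate 1 for Hmgcs1 and Sqle, and the list's summed level was 1566 and 1883 CPM in KO cells and 1421 and 1346 CPM in WT cells. No member of the cholesterol efflux list passed, and Abcg1, a lipid exporter that alveolar macrophages need, was at 1782 and 1683 CPM in KO cells and 2165 and 2591 CPM in WT cells (edgeR adjusted p = 0.131).

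Of 20 genes of fatty acid synthesis and storage, Fads1 alone passed, a desaturase of long polyunsaturated fatty acids. It was at 17.6 and 22.4 CPM in KO cells, against 9.92 and 10.4 CPM in WT cells (log2 0.97 ± 0.16, edgeR adjusted p = 0.0172). Of 23 genes of fatty acid uptake and oxidation, Cpt2 alone passed, which reloads fatty acids onto coenzyme A inside mitochondria. It was at 78.8 and 79.9 CPM in KO cells, against 49.5 and 55.1 CPM in WT cells (log2 0.60 ± 0.11, edgeR adjusted p = 0.0326). The medians of these lists, 0.16 and 0.039, were near 0. Lysosomal genes had 0 of 42 past the threshold, with a median of 0.082 and 32 values above 0. Acp5, a lysosomal acid phosphatase of macrophages, was the nearest to the threshold, at 404 and 384 CPM in KO cells and 241 and 200.2 CPM in WT cells (edgeR adjusted p = 0.0904). Fads1 passed in 1 and Cpt2 in 0 of the 4 fits without a library (highest edgeR adjusted p = 0.211 and 0.312).

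Among the cell-surface receptors in the 85 genes, the scavenger receptor gene Marco had the largest change in absolute level. MARCO binds bacteria and inhaled particles. Its transcript was at 2195 and 2086 CPM in KO cells, against 443 and 455 CPM in WT cells, 4.77-fold higher (log2 2.25 ± 0.31, edgeR adjusted p = 0.00674). Clec4d, a C-type lectin that senses mycobacterial glycolipid, was at 31.8 and 35.6 CPM in KO cells, against 12.3 and 9.27 CPM in WT cells (log2 1.65 ± 0.20, edgeR adjusted p = 0.00287). For both genes each WT library was far below each KO library, and the WT libraries of Marco lay close together. The other 18 of 20 tested scavenger and phagocytic receptors did not pass, and the list's median was 0.054. Among them Msr1, the class A scavenger receptor related to MARCO, was at 38.2 and 51.8 CPM in KO cells and 29.9 and 20.9 CPM in WT cells (edgeR adjusted p = 0.126). Cd36 was at 466 and 560.1 CPM in KO cells and 539 and 564 CPM in WT cells, and was named after its value was seen. Marco kept its call in 1 of the 4 fits without a library, with edgeR adjusted p up to 0.0838 (without WT replicate 1).

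Cd1d1, which presents lipid antigens to natural killer T cells, was at 153 and 147 CPM in KO cells, against 57.5 and 56.4 CPM in WT cells (log2 1.39 ± 0.16, edgeR adjusted p = 0.0017). Tlr13, an endosomal sensor of bacterial ribosomal RNA, was at 132 and 126 CPM in KO cells, against 71.7 and 71.3 CPM in WT cells (log2 0.85 ± 0.14, edgeR adjusted p = 0.0172). It was 1 of 20 toll-like receptor genes tested and the only one past the threshold, with a list median of 0.056. Ncf4, a subunit of the phagocyte NADPH oxidase, and Xdh, xanthine dehydrogenase, were 2.02-fold and 1.96-fold higher in KO cells (edgeR adjusted p = 0.004 and 0.0172). Cd101, Itga6 and Cd81, all surface proteins, were 2.45-fold, 1.84-fold and 1.67-fold higher (edgeR adjusted p = 0.0246, 0.0258 and 0.0258). These 5 genes were chosen after their values were seen. Fc receptor and complement lists had 0 of 6 and 0 of 15 genes past the threshold. Tlr13 passed in 0 of the 4 fits without a library (highest edgeR adjusted p = 0.156).

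Of 30 tested genes that mark alveolar macrophages, Ear5, Ear6 and Marco were higher, 0 were lower and 27 did not pass. The median was 0.068. Among all tested genes 0.471% were higher and 0.196% lower, so that most members did not pass says little of this list. Ear5 was at 15.5 and 22.4 CPM in KO cells, against 4.26 and 1.74 CPM in WT cells (log2 2.69 ± 0.48, edgeR adjusted p = 0.0306), and Ear6 at 28.3 and 25.2 CPM in KO cells, against 5.1 and 7.97 CPM in WT cells (log2 2.02 ± 0.39, edgeR adjusted p = 0.0446). These are members of a family of eosinophil-associated ribonucleases with near-identical sequences, and both values are uncertain for that reason. The summed level of the 11 Ear genes in the table was 1907 and 2056 CPM in KO cells, against 2529 and 2497 CPM in WT cells, which is the opposite direction. Pparg, the nuclear receptor that alveolar macrophages depend on, was at 239.6 and 237 CPM in KO cells and 174 and 169.8 CPM in WT cells (edgeR adjusted p = 0.183). Fabp1, a fatty acid carrier, had a log2 fold change of -1.32 ± 0.32 and an edgeR adjusted p of 0.111. Without a library, Ear5 passed in 1 of 4 fits and Ear6 in 0 (highest edgeR adjusted p = 0.29 and 0.33).

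Large fold differences also fell on transporters, enzymes and secreted factors outside these lists. Slc36a2, an amino acid transporter that moves protons along, was at 7.58 and 7.64 CPM in KO cells, against 0.489 and 0.241 CPM in WT cells (log2 4.41 ± 0.68, edgeR adjusted p = 0.0123). Tsku, a secreted leucine-rich repeat protein, was at 10.6 and 8.48 CPM in KO cells, against 0.489 and 0.724 CPM in WT cells (log2 3.93 ± 0.52, edgeR adjusted p = 0.00453). Both were under 1 CPM in WT cells, so their folds rest on few counts there. Ppap2b, a lipid phosphate phosphatase, was at 25.6 and 27.6 CPM in KO cells, against 7.96 and 6.47 CPM in WT cells (log2 1.89 ± 0.17, edgeR adjusted p = 0.000341). Aldh2, the mitochondrial aldehyde dehydrogenase, was at 348 and 351 CPM in KO cells, against 139.7 and 113 CPM in WT cells (log2 1.47 ± 0.11, edgeR adjusted p = 0.000112). Glrx, glutaredoxin, was at 143 and 167 CPM in KO cells, against 68.2 and 62.9 CPM in WT cells (log2 1.24 ± 0.13, edgeR adjusted p = 0.000822). For each of the last 3 genes both KO libraries were more than 2 times the level of either WT library. Slc36a2 passed in 0 of the 4 fits without a library and Tsku in 3 (highest edgeR adjusted p = 0.102 and 0.0659).

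Further oxidoreductases and carriers among the 60 genes were chosen after their values were seen. Slc22a4, a carrier of ergothioneine, was at 2.71 and 3.78 CPM in KO cells, against 0.349 and 0.338 CPM in WT cells (edgeR adjusted p = 0.00308). Ptgr1, a prostaglandin reductase, was 2.09-fold higher (edgeR adjusted p = 0.00788). Por, which passes electrons from NADPH to cytochromes P450, was 1.71-fold higher (edgeR adjusted p = 0.0172), and Cyb5, cytochrome b5, 1.59-fold (edgeR adjusted p = 0.0234). Sord, sorbitol dehydrogenase, was 1.55-fold higher (edgeR adjusted p = 0.0116), and Mocos, which activates the molybdenum cofactor of xanthine dehydrogenase, 2.05-fold (edgeR adjusted p = 0.00308). Creg1, a glycoprotein of the endosome and lysosome, was at 749 and 742 CPM in KO cells, against 387 and 337 CPM in WT cells (edgeR adjusted p = 0.0017). Lrp8, a receptor for apolipoprotein E and reelin, was 1.96-fold higher (edgeR adjusted p = 0.0095). Dnmt1, which keeps DNA methylation through replication, was 1.66-fold higher (edgeR adjusted p = 0.0267).

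A few of the largest folds cannot be taken at face value. Amd1, which encodes S-adenosylmethionine decarboxylase of polyamine synthesis, held 3413 counts over both KO libraries and 3 over both WT libraries, a ratio of 1232 (exact 95% interval 421 to 5977, counting error only). Its near-identical copy Amd2 was at 8.25 and 0.0701 CPM in KO cells and 97.7 and 114 CPM in WT cells, with the KO libraries lower, and did not pass (edgeR adjusted p = 0.221). The summed level of the pair was 111 and 109 CPM in KO cells, against 97.7 and 113.7 CPM in WT cells, so the groups overlapped. Gm6682, annotated as a pseudogene, held 922 counts in KO cells and 2 in WT cells, a ratio of 499 (138 to 4128). The size of this ratio rests on the few WT counts, but its direction was the same at 10 weeks. There Gm6682 was at 20.1 and 10.1 CPM in KO cells, against 0 and 0.237 CPM in WT cells (edgeR adjusted p = 0.0147). Among the lower genes Gm4724 was at 0.111 and 0.42 CPM in KO cells and 7.48 and 4.97 CPM in WT cells, while 0610010B08Rik on the same chromosome was higher, at 30.6 and 21.2 CPM in KO cells and 5.59 and 2.7 CPM in WT cells. The summed level of Gm4724 and 0610010B08Rik was 30.7 and 21.6 CPM in KO cells, against 13.1 and 7.68 CPM in WT cells. Unlike the sum of Amd1 and Amd2, it did not overlap between the genotypes. Gm6682, Gm4724 and 0610010B08Rik were named after their values were seen. The sources used here do not state how reads shared between copies were assigned.

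Fewer genes were lower in KO cells, and they included transcription factors, a protease inhibitor and signalling genes. Slpi, a secreted inhibitor of neutrophil elastase, was at 43.4 and 51.3 CPM in KO cells, against 142 and 113 CPM in WT cells. It was 2.69-fold higher in WT, with a log2 fold change of -1.43 ± 0.14 and an edgeR adjusted p of 0.000814. Of 20 tested proteases and inhibitors, Slpi was the only one that was lower, and Serpinb1a, another elastase inhibitor, was the only one that was higher, at 351 and 337 CPM in KO cells and 234 and 219 CPM in WT cells (log2 0.60 ± 0.12, edgeR adjusted p = 0.0494). Serpinb1a passed in 0 of the 4 fits without a library (highest edgeR adjusted p = 0.273).

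Of 25 tested macrophage transcription factors, Cebpa and Id3 were lower, 0 were higher and 23 did not pass, with a median of -0.13. Cebpa, a C/EBP factor of the myeloid lineage, was at 449.8 and 479.6 CPM in KO cells, against 692 and 746 CPM in WT cells (log2 -0.63 ± 0.12, edgeR adjusted p = 0.0473). Id3, an inhibitor of helix-loop-helix factors and a target of BMP and TGF-beta signals, was at 2.38 and 1.96 CPM in KO cells, against 14.5 and 8.88 CPM in WT cells (log2 -2.40 ± 0.38, edgeR adjusted p = 0.0166). The genotypes did not overlap for either gene, but Id3 was low and the WT libraries differed between themselves. Among the other 25 of 26 tested TGF-beta and BMP genes 0 passed, and Tgfb1 was at 358 and 381 CPM in KO cells and 485 and 416 CPM in WT cells (edgeR adjusted p = 0.392). Smarcd1, a subunit of SWI/SNF chromatin remodellers, was at 23.7 and 24 CPM in KO cells, against 39 and 36 CPM in WT cells (log2 -0.65 ± 0.10, edgeR adjusted p = 0.0135). Cebpa and Smarcd1 passed in 0 of the 4 fits without a library and Id3 in 1 (highest edgeR adjusted p = 0.297, 0.153 and 0.214).

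Some genes for signals between cells were also lower. Pdgfc, a growth factor of the PDGF family, was at 20.4 and 21.9 CPM in KO cells, against 46.3 and 47.9 CPM in WT cells (log2 -1.16 ± 0.14, edgeR adjusted p = 0.00243). Fzd1, a Wnt receptor, was at 8.13 and 8.62 CPM in KO cells, against 17.9 and 18.6 CPM in WT cells (log2 -1.12 ± 0.21, edgeR adjusted p = 0.0388). Rasgrp4, an activator of Ras in myeloid cells, was at 13.8 and 14 CPM in KO cells, against 27.5 and 31.3 CPM in WT cells (log2 -1.08 ± 0.21, edgeR adjusted p = 0.0451). In each of these the KO libraries nearly coincided, and both were far below both WT libraries. Sgms2, a sphingomyelin synthase, was at 16.5 and 19.8 CPM in KO cells, against 37.9 and 40.1 CPM in WT cells (log2 -1.11 ± 0.16, edgeR adjusted p = 0.00788). Agmo, which cleaves ether lipids, was 1.87-fold higher in WT (edgeR adjusted p = 0.0172), and Plscr4, a phospholipid scramblase, 2.91-fold (edgeR adjusted p = 0.0166). Tppp3, a tubulin-binding protein, was at 37.4 and 47.4 CPM in KO cells, against 121 and 92.5 CPM in WT cells (log2 -1.34 ± 0.17, edgeR adjusted p = 0.00378). The remaining genes of the named set, Gpr155, Fam102b, Trim47 and Ankrd13b, were lower by log2 values of -0.76, -0.85, -0.78 and -0.71 (edgeR adjusted p = 0.00788, 0.0386, 0.0491 and 0.0496). Pdgfc and Tppp3 passed in 3 of the 4 fits without a library, Sgms2 in 2, Gpr155 and Plscr4 in 1, and Fzd1, Rasgrp4, Agmo, Fam102b, Trim47 and Ankrd13b in 0 (highest edgeR adjusted p = 0.423).

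**Figure D3:**
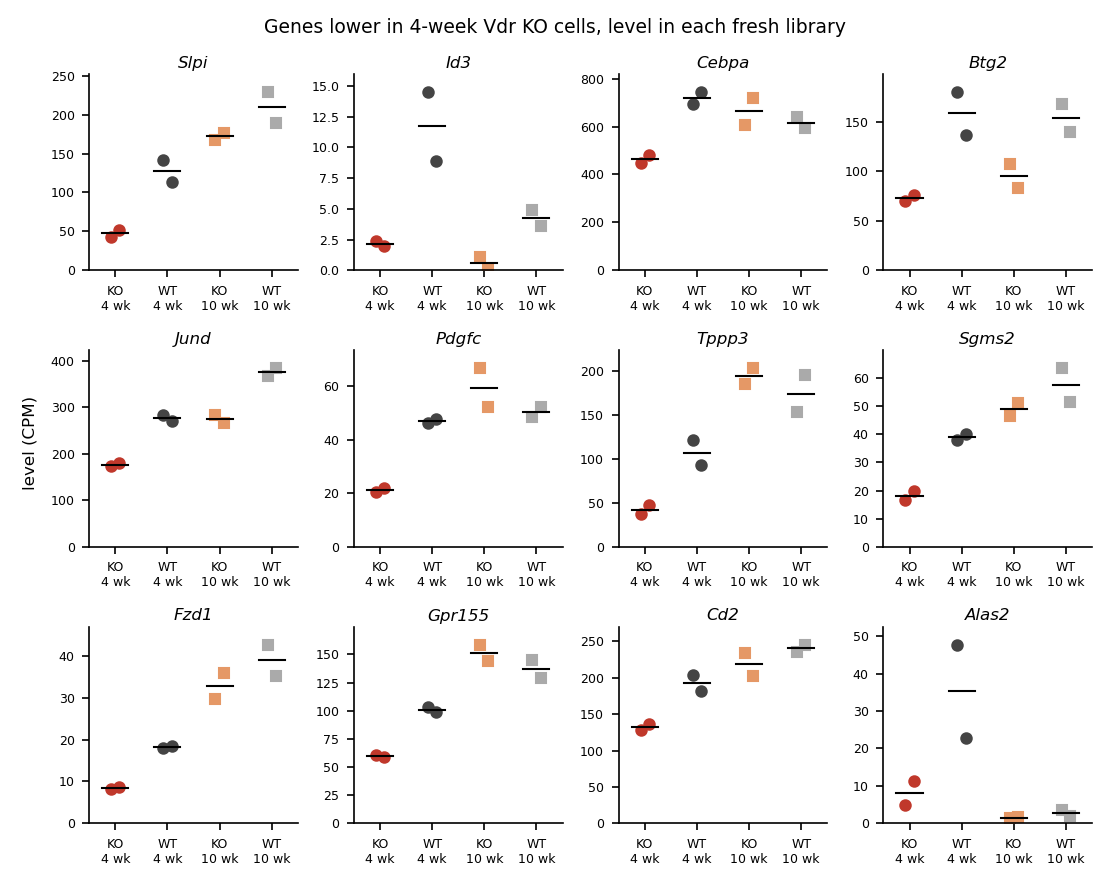
Level (y axis, CPM from 0) of 12 genes that were lower in 4-week KO cells, in each of the 8 fresh libraries, with a bar at the mean of each group of 2. Slpi was at 43.4 and 51.3 CPM in 4-week KO cells, below all 6 other fresh libraries, while Alas2 was lower still in all 4 libraries of 10-week cells.

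Immediate early genes, which respond within minutes to growth factors, stress and handling, mostly had values below 0. Of 29 tested, Btg2 and Jund were lower, Nfkbia was higher and 26 did not pass. With DESeq2 6 were lower, and with no filter on low counts 15. Among all genes 90 and 311 were lower in those fits, against 25. The median of the list was -0.65, and 26 members had values below 0. Btg2, an antiproliferative factor, was at 70.3 and 75.8 CPM in KO cells, against 181 and 137 CPM in WT cells (log2 -1.12 ± 0.17, edgeR adjusted p = 0.0123). Jund, an AP-1 subunit, was at 174 and 179.6 CPM in KO cells, against 284 and 269.9 CPM in WT cells (log2 -0.65 ± 0.13, edgeR adjusted p = 0.0496). Its relative Jun was at 55.3 and 68.2 CPM in KO cells and 145 and 117 CPM in WT cells (edgeR adjusted p = 0.0503). For each of the 3 genes WT replicate 1 was the highest of the 4 libraries. Egr1, an early growth response factor named after its value was seen, was at 3.1 and 3.22 CPM in KO cells and 31.3 and 15.5 CPM in WT cells (edgeR adjusted p = 0.0673). Nfkbia encodes the inhibitor that holds NF-kappaB in the cytoplasm and is also a known target of VDR. It was at 179 and 156 CPM in KO cells, against 82 and 90 CPM in WT cells (log2 0.97 ± 0.14, edgeR adjusted p = 0.00819). Btg2 and Nfkbia passed in 1 of the 4 fits without a library and Jund in 0 (highest edgeR adjusted p = 0.154, 0.113 and 0.343). The part of handling time in these values was not tested.

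Genes of vitamin D metabolism and its receptor complex held 0 of 12 past the threshold, with a median of 0.02. Cyp24a1, which degrades vitamin D and is the textbook target of the receptor, had 1 and 2 counts in the KO libraries and 0 and 0 in the WT libraries, and a count of 0 allows up to 3, so no difference was detectable at this depth. Rxra, a DNA-binding partner of VDR, was at 419 and 384 CPM in KO cells and 400.0 and 375 CPM in WT cells. It was named after its value was seen. Of 14 tested known VDR targets, Nfkbia was higher, 0 were lower, and the median was 0.14. Cd14, a lipopolysaccharide co-receptor on that list, was at 49.1 and 51.6 CPM in KO cells and 75.7 and 61.2 CPM in WT cells (edgeR adjusted p = 0.385). In the list of glucocorticoid-responsive genes 0 of 15 passed, and Fkbp5, a chaperone induced by steroid receptors, came nearest at 450.2 and 337 CPM in KO cells and 112 and 212 CPM in WT cells (edgeR adjusted p = 0.0503).

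Several lists leaned one way with 0 members past the threshold. Cell cycle genes had 36 of 37 values above 0 and a median of 0.54, and for 35 of them both KO libraries were above both WT libraries. Among all tested genes 48.6% were apart in one direction or the other. Ccnb1, cyclin B1, was at 42.8 and 54.4 CPM in KO cells, against 25.3 and 32.5 CPM in WT cells (edgeR adjusted p = 0.132). MHC class II genes had 10 of 11 values below 0 and a median of -1.45. H2-Ab1, a class II beta chain, was at 10.2 and 8.76 CPM in KO cells, against 53.4 and 17.2 CPM in WT cells (edgeR adjusted p = 0.212). WT replicate 2 was nearer to the KO libraries than to WT replicate 1. In the 10-week libraries H2-Ab1 was at 631 and 687 CPM in KO cells and 587 and 540.0 CPM in WT cells, far above every 4-week library. Chemokine, inflammatory cytokine and interferon-stimulated lists had 0 of 22, 0 of 16 and 0 of 25 past the threshold, with medians of -0.34, -0.32 and -0.12. Heat shock chaperone and unfolded protein response lists had 0 of 16 and 0 of 20, with medians of -0.024 and -0.084.

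**Figure D4:**
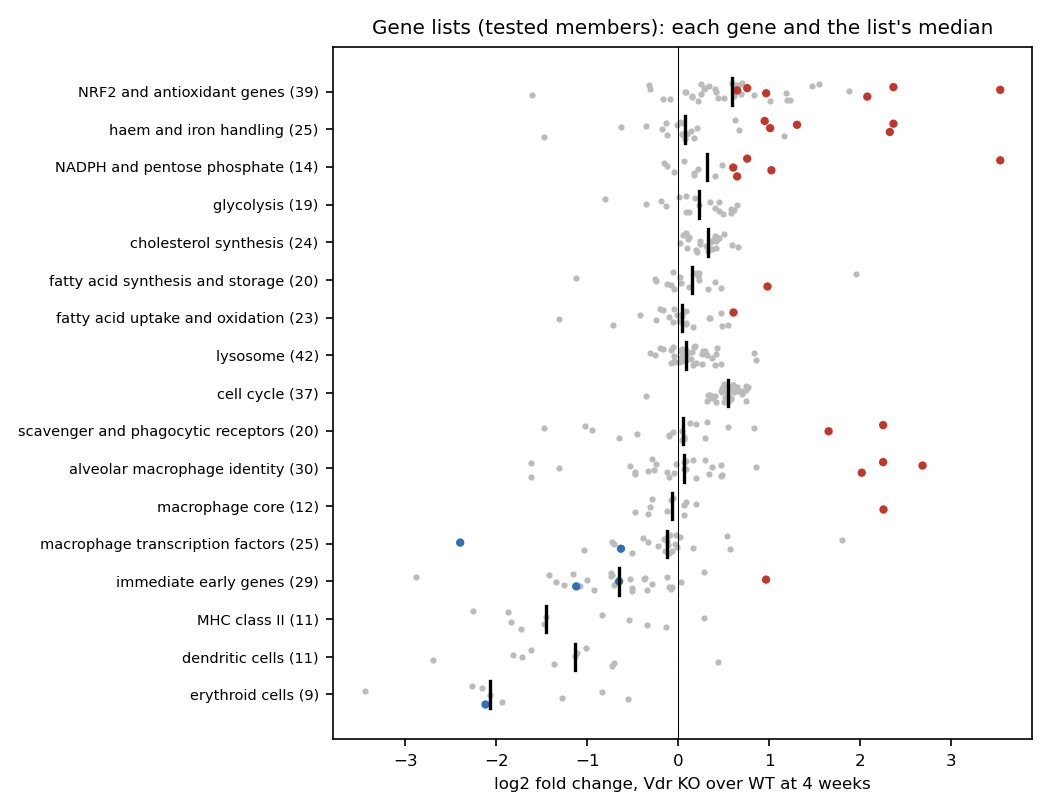
Each point is a tested gene of 1 of 17 lists (rows, number tested in brackets), placed by its log2 fold change of KO over WT at 4 weeks (x axis), with a black bar at the list's median. Red and blue points passed the test as higher and lower, and the medians run from -2.07 for erythroid cells to 0.59 for the NRF2 list, against -0.0066 for all genes.

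Markers of other cells in the lavage were measured in the same libraries. In bulk RNA, fewer cells of a type and less RNA per cell cannot be told apart. All 9 tested erythroid genes had values below 0, with a median of -2.07. Of these 1 passed, and 7 passed with no filter on low counts. With no filter 311 of all genes were lower, against 25. The erythroid genes summed to 359.6 and 662 CPM in KO cells, against 3187 and 1355 CPM in WT cells. Of the 10 measured, 0 were at 0 counts in all 4 libraries. Alas2, the erythroid enzyme of haem synthesis, was 1 of the 25 lower genes, at 4.98 and 11.2 CPM in KO cells, against 47.7 and 22.7 CPM in WT cells (log2 -2.13 ± 0.41, edgeR adjusted p = 0.0445). It passed in 2 of the 4 fits without a library (highest edgeR adjusted p = 0.368). Hba-a1, an alpha globin gene, was at 228 and 489 CPM in KO cells and 2315 and 885 CPM in WT cells (edgeR adjusted p = 0.0701). The erythroid sum was thus lower in the libraries where Hmox1, ferritin and ferroportin transcripts were higher, and its part in those results was not tested. In the 10-week libraries Hba-a1 was at 27.1 and 12.6 CPM in KO cells and 36.3 and 40.5 CPM in WT cells, with Hmox1 at 128 and 154 CPM in the same KO cells and 200.5 and 198 CPM in the same WT cells.

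Dendritic cell markers had 10 of 11 values below 0, 0 past the threshold and a summed level of 29.4 and 48.1 CPM in KO cells, against 139 and 51 CPM in WT cells. WT replicate 1 stood above the other 3 libraries. T cell markers had 10 of 11 values below 0, and Cd2 passed, at 128 and 137 CPM in KO cells, against 204 and 182 CPM in WT cells (log2 -0.55 ± 0.11, edgeR adjusted p = 0.0496). Cd3d, a chain of the T cell receptor complex that defines these cells, was at 0.941 and 0.841 CPM in KO cells and 1.26 and 0.917 CPM in WT cells, near 0 beside the level of Cd2. Cd2 passed in 0 of the 4 fits without a library (highest edgeR adjusted p = 0.386). Airway epithelial markers summed to 152 and 447 CPM in KO cells and 200.1 and 136 CPM in WT cells, and Scgb1a1, the club cell secretory protein, was at 22.9 and 185 CPM in KO cells and 26 and 10.7 CPM in WT cells. KO replicate 2 alone was high, with 0 of 10 tested markers past the threshold. Neutrophil markers summed to 121 and 128 CPM in KO cells and 109 and 125 CPM in WT cells. Monocyte and interstitial macrophage markers had 8 of 11 values below 0, 0 past the threshold, a median of -0.82 and a sum of 1553 and 1915 CPM in KO cells and 1856 and 1264 CPM in WT cells. Endothelial markers summed to 176 and 164 CPM in KO cells and 112 and 127 CPM in WT cells, with no overlap. Of the 8 listed only 1, Vwf, had enough counts to be tested, so the sum rests mainly on that gene. Vwf did not pass, and 48.6% of all tested genes had no overlap either. Fibroblast and smooth muscle markers summed to 7.03 and 9.6 CPM in KO cells and 6.15 and 5.12 CPM in WT cells, and the 3 tested had a median of 1.71 with 0 past the threshold. Natural killer, eosinophil and mast cell, endothelial and stromal lists had 5, 7, 3 and 2 markers at 0 counts in all 4 libraries. The part of these cells in the genotype differences was not tested.

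The 4-week KO libraries could also be set beside all the other fresh cells. For 54 of the 60 higher genes both KO libraries were above each of the other 6 fresh libraries, which held for 11.3% of all tested genes. For 21 of the 25 lower genes both were below each of the 6, which held for 10.7% of all tested genes. The 4-week WT libraries are part of both the test and this count. The KO difference at 4 weeks itself differed from the KO difference at 10 weeks for 24 genes, 0.188% of those tested (edgeR interaction test). Of these, 16 had the higher value at 4 weeks and 8 the lower one, and 19 of the 24 were among the 85 genes. At 10 weeks 14 genes passed, of which 4 were among the 85: Tuba1c, Slc11a2, Tlr13 and Gm6682.

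Hmox1 was at 128 and 154 CPM in 10-week KO cells, against 200.5 and 198 CPM in 10-week WT cells, and its 4-week difference exceeded its 10-week difference by log2 2.87 ± 0.25 (edgeR adjusted p = 0.000706). Ppap2b was at 2.44 and 2.98 CPM in 10-week KO cells, against 6.01 and 5.54 CPM in 10-week WT cells, the opposite direction to that at 4 weeks, with a difference between ages of log2 3.02 ± 0.27 (edgeR adjusted p = 0.000706). Marco showed the same change of direction, at 291 and 142 CPM in 10-week KO cells and 365 and 330.1 CPM in 10-week WT cells (difference log2 2.94 ± 0.43, edgeR adjusted p = 0.0206). At 10 weeks alone Ppap2b and Marco did not pass (edgeR adjusted p = 0.0882 and 0.487). Abcb6 and Aldh2 had differences between ages of log2 1.89 ± 0.19 and 1.61 ± 0.16 (edgeR adjusted p = 0.00103 for both), and Ftl1 and Creg1 of 1.02 ± 0.15 and 1.19 ± 0.17 (edgeR adjusted p = 0.0203 and 0.02). Aldh2, Ftl1 and Creg1 were added here after their values were seen.

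Id3 was low in KO cells at both ages: the 10-week libraries had 1.12 and 0 CPM in KO cells, against 4.87 and 3.64 CPM in WT cells, a log2 fold change of -2.60 ± 0.53 that did not pass (edgeR adjusted p = 0.107). Klhl6 and Ap1s2 were 2.44-fold and 1.89-fold higher in KO cells at 4 weeks, with 10-week log2 fold changes of 1.14 ± 0.19 and 0.92 ± 0.16 that fell just short (edgeR adjusted p = 0.0515 and 0.0716). Klhl6 and Ap1s2 were chosen after their values were seen. Several lower genes were higher at 10 weeks in both genotypes than in any 4-week library. Slpi was at 167 and 177 CPM in 10-week KO cells and 229.5 and 189 CPM in 10-week WT cells, and Fzd1 at 29.7 and 35.9 CPM in 10-week KO cells and 42.7 and 35.1 CPM in 10-week WT cells. For these genes the 4-week WT libraries lay between the 4-week KO libraries and the 10-week libraries. The ages differed in sex-linked transcripts: replicate 2 of each genotype at 10 weeks had Xist at 787 CPM in KO and 800.3 CPM in WT.

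**Figure D5:**
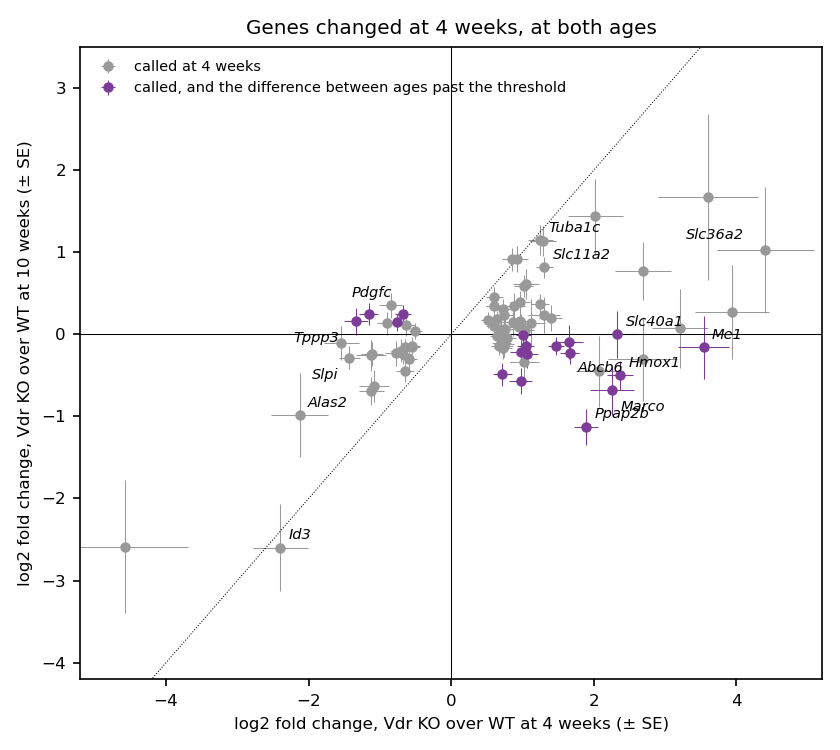
Log2 fold change of KO over WT at 4 weeks (x axis) and at 10 weeks (y axis) with SE bars, for 83 of the 85 genes; Amd1 and Gm6682 lie outside the range. Purple points also passed the test of the difference between ages, and the dotted line marks equal change: Tuba1c (1.25 and 1.15) lies near it, while Hmox1 (2.37 and -0.50) lies far below.

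Genes close to a knocked-out gene are inherited with it, so genes near Vdr were located. By RefSeq order 4 of 488 tested genes of chromosome 15 were among the 85 (0.82%), close to the 0.667% over all tested genes. Tuba1c, Smarcd1 and Slc11a2 lay 20, 32 and 41 tested genes from Vdr, all on the same side, and Ncf4 168 away on the other side. Those on the first side all lay within 41 tested genes of Vdr, out of 488 on the chromosome. The share over the whole chromosome thus does not describe the stretch next to Vdr, where the calls lay close together. The share of that stretch was not computed. Tuba1c and Slc11a2 were also among the 4 genes that passed at both ages. Tuba1c, an alpha tubulin gene, was at 158 and 179 CPM in KO cells, against 77 and 64.9 CPM in WT cells at 4 weeks (log2 1.25 ± 0.18, edgeR adjusted p = 0.00788). Linkage to the allele and loss of the receptor cannot be told apart for such genes in this design.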

How the data were processed

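RNA was measured by RNA-seq in 12 libraries of mouse alveolar macrophages in 6 groups of 2. An RNeasy Micro kit (RNA) and a KAPA mRNA HyperPrep kit (libraries) were used, per the labels' protocols. The authors deposited raw counts per gene, and a table of log2 values that match log2(CPM + 1). Per the submitters' processing notes, the tools were TopHat2 and edgeR and the build was mm9. Not given in the sources used here were tool versions, the counting tool, strand setting and annotation. The log2 columns of 10-week cells carry group names only and match the counts of the same genotype label, although the description codes of 10-week KO replicate 1 and WT replicate 2 name the other genotype.

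Counts of all 12 libraries were fitted with edgeR 4.0.16 in R 4.3.3 (TMM scaling, filterByExpr with minimum count 10 and minimum total 15, quasi-likelihood F test, with 6 residual degrees of freedom). Adjustment was by Benjamini-Hochberg over 12748 genes with a threshold of 0.05. CPM values are counts over TMM-scaled library sizes. The code was tested on simulated counts. Gene lists were described by counts and medians, with no test. The members and lists were chosen with earlier results of these data known. Genes were named by rule: Vdr and Cyp24a1; per direction the 15 with the largest fold and the 10 with the smallest p among called genes with non-overlapping groups and a mean of 5 CPM or more in the higher one, without predicted genes and small RNAs; list members past the threshold and up to 4 members per pathway list with the smallest p; the 3 most abundant markers per cell type; and up to 8 genes per direction for the difference between ages. Alternatives were DESeq2 1.42.0, its size factors, no filter, a strict filter (5 CPM in 2 libraries), fits on the 4-week or fresh libraries, a replicate block, exchange of the 10-week labels in conflict, leaving out each library, and limma 3.58.1 on the deposited log2 values. Promoters came from RefSeq windows (GRCm38.p6) matched by symbol.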

Additional observations from a re-analysis of the deposited data

Results flagged for a closer look

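The KO difference was tested between ages, and 15 named genes differed past the threshold. In each value below the 10-week log2 fold change is taken from the 4-week one. Among genes with the higher value at 4 weeks the differences were 9.75 for Amd1, 3.70 for Me1, 3.02 for Ppap2b, 2.94 for Marco, 2.87 for Hmox1, 2.33 for Slc40a1, 1.89 for Abcb6 and 1.75 for Clec4d (edgeR adjusted p = 9.56e-06, 0.02, 0.000706, 0.0206, 0.000706, 0.0495, 0.00103 and 0.0417). All 269 comparisons of these 15 differences with an alternative fit kept their direction, but 151 stayed past the threshold. Abcb6, Amd1 and Hmox1 passed in every fit in which they were tested, and each of the other 12 lost its call in at least 1. Slc40a1 lost it with DESeq2 size factors and with the strict filter on low counts. The value of Amd1 carries the doubt about reads shared with Amd2.

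In the other direction they were -2.82 for Ager, -1.49 for Tppp3, -1.40 for Pdgfc, -1.20 for Lair1, -1.15 for Gpcpd1, -0.92 for Adam22 and -0.90 for Gpr155 (edgeR adjusted p = 0.0236, 0.0363, 0.0184, 0.041, 0.0203, 0.0486 and 0.0471). Ager, which type I alveolar epithelium expresses, was at 2.71 and 2.38 CPM in 4-week KO cells and 3.28 and 3.67 CPM in 4-week WT cells, with 9.7 and 10.8 CPM in 10-week KO cells and 1.62 and 2.37 CPM in 10-week WT cells. Lair1, an inhibitory collagen receptor, was at 60.9 and 59.5 CPM in 4-week KO cells and 79.4 and 87.5 CPM in 4-week WT cells, with 107 and 119 CPM in 10-week KO cells and 72.9 and 62.9 CPM in 10-week WT cells. Ager, Lair1 and Gpcpd1 were not among the 85 genes changed at 4 weeks.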

How the results depend on the processing

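All 715 comparisons of 48 named genes with an alternative fit kept their direction, and 536 stayed past the threshold. The 13 genes tested and past it in every alternative fit were Abcb6, Aldh2, Cd1d1, Clec4d, Creg1, Ftl1, Glrx, Hmox1, Me1, Mocos, Ppap2b, Slc40a1 and Slpi. The counts of members past the threshold in the gene lists were unchanged in 340 of 510 comparisons. The counts of genes moved far more. The 85 changed genes (60 higher, 25 lower) and the 24 with a difference between ages became 261 (171, 90) and 89 with DESeq2, 690 (379, 311) and 392 with no filter on low counts, and 213 (132, 81) and 52 with fresh libraries only. With the 4-week libraries only they were 635 (397, 238). With the 10-week label exchange they were 42 (31, 11) and 12. With the replicate block they were 47 (34, 13) and 11. The replicate numbers share only a number: deviations of same-numbered libraries had a correlation of -0.12 over 12748 genes. Crossed pairing, chosen after seeing the data, gave 87 changed genes and 12 with a difference between ages. Leaving out 1 library gave 26 to 39 changed genes, 23 to 29 higher, 2 to 16 lower, and 5 to 15 with a difference between ages. Without both 10-week libraries of high Xist, a fit added after seeing the data, 10 genes differed between ages. Vdr passed with no filter (log2 -0.56, edgeR adjusted p = 0.00308) and in no other fit tried. With no filter p-values fell far at like fold changes, so this pass carries little weight. Leaving out any of the 4 libraries at 4 weeks moved the count by more than 1.5 times; those fits had fewer libraries. For the other shifts the cause was not tested. With 2 libraries a group, genes under about 1 CPM rest on few counts.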
